A study of Mus musculus with 20 samples.

Results

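The genes described here are the zinc finger genes whose mouse symbol is Zfp followed by a 3-digit number, as far as their RNA was detected in unstimulated sensory neurons in culture. Of 30222 gene names on the array, 292 had such a symbol, and 261 of them had at least 1 spot that the scanner software marked as well above background in both colours of both arrays of unstimulated cells. These 261 genes are the members. That mark chose them, so their detection in unstimulated cells is a description and was not tested. The remaining 31 names had no spot with that mark in all of these. Just inside the rule, the mean signal of the spot over its local background in unstimulated cells was 1.35 for Zfp295 and 1.42 for Zfp607, and just outside it was 1.64 for Zfp750 and 1.51 for Zfp882. These ratios overlap.

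Dorsal root ganglion (DRG) neurons of NIH Swiss mouse embryos of embryonic day 13.5 were grown in compartmented dishes with nerve growth factor and treated with fluorodeoxyuridine, which stops dividing non-neuronal cells, and were moved to medium without nerve growth factor and serum the night before the experiment. The neurons were left unstimulated or were fired through electrodes for 2 hr or 5 hr, either in bursts of 18 action potentials that recurred each 1 min (18/1) or in bursts of 90 that recurred each 5 min (90/5). Both patterns deliver the same number of action potentials over time, so the study asked whether the timing of firing alters RNA levels. Cultures were pooled to make the RNA of a condition. RNA of 4 samples per condition was hybridised to 2-colour arrays, 2 samples of 1 condition on each array, which gives 20 samples on 10 arrays of 3 slides. Slide 1 held the unstimulated and 18/1 2 hr samples, slide 2 the 18/1 5 hr and 90/5 2 hr samples and slide 3 the 90/5 5 hr samples. For the conditions of slide 2 the labels give both samples of an array the same dye, so those samples are named here by array number and colour. In these bulk samples, fewer cells of a type and less RNA per cell cannot be told apart.

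C2H2 zinc finger proteins carry tandem repeats of a short finger, each of which holds a zinc ion and contacts a few bases of DNA, and neighbouring fingers are joined by a conserved linker. Many of the mouse Zfp genes also encode a KRAB domain, which recruits the corepressor Trim28 and through it histone methylation and heterochromatin proteins, and such genes lie in clusters that arose by duplication. Others are activators at promoters, or bind RNA. The symbols say only that a finger is present, so the set mixes these classes.

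The linker matters here because related genes share it, and a probe that lies on it can share bases with several genes. Of the 134 members tested, 17 had a probe with a run of at least 20 bases identical to a probe of another gene, and 4 had a probe that holds the linker codons. These 4 probes are shown, 5′ to 3′, with the linker codons in capitals and with the mm9 position that the scanner files give.
Zfp936, chr7:50445732-50445791: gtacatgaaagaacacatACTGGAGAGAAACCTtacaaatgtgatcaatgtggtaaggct
Zfp386, chr12:117298639-117298698: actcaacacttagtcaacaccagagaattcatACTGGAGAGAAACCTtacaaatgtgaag
Zfp442, chr2:150234210-150234269: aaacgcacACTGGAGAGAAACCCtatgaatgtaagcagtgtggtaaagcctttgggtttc
Zfp947, chr17:22282838-22282897: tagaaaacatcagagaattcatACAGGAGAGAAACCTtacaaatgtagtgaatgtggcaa
The probes of Zfp386 and Zfp936 share a run of 29 bases, and each shares 21 bases with the probe of Zfp947. The probe of Zfp442 shares 24 bases with that of Zfp930 and 31 bases with that of Zfp937. The level of each of these genes may therefore include signal from the others, and what part it had in their values was not tested.

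Promoters were read from RefSeq for the members with the clearest changes (GRCm38.p6, the 250 bases before the start of the gene). No promoter was found for Zfp609, Zfp930, Zfp593 and Zfp532, so those of Zfp609 and Zfp930 are not shown. All 261 members matched a RefSeq gene, 251 by symbol and 10 by accession. Capitals mark a run of 16 bases common to Zfp937 and Zfp936, and in Zfp346 the letters CCCGCCC, the reverse strand of the GC box bound by SP-type factors.
Zfp937, chr2:150217849-150218098, plus strand: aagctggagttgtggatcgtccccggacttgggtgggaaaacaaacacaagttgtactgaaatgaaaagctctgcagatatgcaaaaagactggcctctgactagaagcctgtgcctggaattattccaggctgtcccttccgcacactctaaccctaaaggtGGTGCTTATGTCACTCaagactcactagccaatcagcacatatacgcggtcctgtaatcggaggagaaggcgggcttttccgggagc
Zfp936, chr7:43177340-43177589, plus strand: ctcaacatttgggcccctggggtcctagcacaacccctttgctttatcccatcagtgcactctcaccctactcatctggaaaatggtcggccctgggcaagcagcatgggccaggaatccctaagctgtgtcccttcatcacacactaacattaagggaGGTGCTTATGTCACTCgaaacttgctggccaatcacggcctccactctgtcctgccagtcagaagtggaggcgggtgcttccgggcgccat
Zfp791, chr8:85123096-85123345, minus strand: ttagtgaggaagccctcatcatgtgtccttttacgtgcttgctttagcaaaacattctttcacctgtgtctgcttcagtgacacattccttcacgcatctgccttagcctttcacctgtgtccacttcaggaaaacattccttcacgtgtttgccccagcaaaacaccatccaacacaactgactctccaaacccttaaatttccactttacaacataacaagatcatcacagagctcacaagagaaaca
Zfp346, chr13:55105072-55105321, plus strand: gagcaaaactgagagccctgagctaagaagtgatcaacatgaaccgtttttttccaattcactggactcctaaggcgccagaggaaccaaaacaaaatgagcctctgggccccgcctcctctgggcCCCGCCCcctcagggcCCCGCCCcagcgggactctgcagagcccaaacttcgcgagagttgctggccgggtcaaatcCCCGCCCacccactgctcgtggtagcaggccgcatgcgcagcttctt
Zfp414, chr17:33628842-33629091, plus strand: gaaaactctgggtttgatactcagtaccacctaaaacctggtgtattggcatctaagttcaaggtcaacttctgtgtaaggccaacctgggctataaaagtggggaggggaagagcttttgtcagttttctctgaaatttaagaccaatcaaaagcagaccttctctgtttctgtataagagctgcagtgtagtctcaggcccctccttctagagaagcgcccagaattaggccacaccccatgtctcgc
The common run GGTGCTTATGTCACTC lies 87 bases before the start of Zfp937 and 91 bases before that of Zfp936, and 7 of 27018 promoters hold it, among them that of Zfp442. The GC boxes of Zfp346 lie 124, 108 and 47 bases before its start. Promoters of 115 tested members were found, with a median GC content of 56.4% and a median of 13 CpG, against 52% and 6 CpG over all 27018 promoters. That larger set also holds genes that were not tested here. These values and the motif shares below are therefore not set against the 10355 tested genes, and a difference need not be particular to the members. Motifs were searched on either strand in the promoters of the tested members, of which 16 were called higher and 37 lower at 18/1 5 hr. The GC box GGGCGGG was found in 37.4% of the members' promoters (5 of the 16 and 11 of the 37) and in 23.6% of all 27018. The cyclic AMP response element TGACGTCA was in 3.48% of the members' promoters (2 of 16 and 1 of 37) and in 1.62% of all. The ETS motif CCGGAAGT was in 6.09% (1 and 4) against 2.93% of all, and the NRF1-type motif in 7.83% (2 and 2) against 3.86%. The ZNF143-type motif ACTACAA was in 6.09% (0 and 2) against 2.98%, and the YY1-type motif AAGATGGCG in 0.87% (0 and 0) against 0.607%. These matches are letters in a window and were not tested.

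Members were tested where a spot of theirs was at least 2 times its background and not marked non-uniform in all 20 samples. This left 134 of the 261. Of the other 127, 63 were too dim and 64 were bright enough but had a spot marked non-uniform in some sample. All 10355 genes tested in the same way carried the marks that chose the members, so these genes serve as the background of each count. The neuron markers were well above background in all samples of every condition for 14 of 14 genes, save Trpv1 at 18/1 5 hr, and firing was read from 4 tested response genes. Of these, 2 were called in either 18/1 condition and 3 in either 90/5 condition, each of them higher than in unstimulated samples. The log2 difference of Nr4a1 lay between 4.44 (18/1 5 hr) and 5.51 (90/5 5 hr) and that of Rgs2 between 3.27 and 3.96, while at 18/1 5 hr Egr1 had 1.00 (adjusted p = 0.17) and Arc 0.40 (adjusted p = 0.474). Fos and Npas4, also on the list, did not pass the filter. In a wider limma fit of 19117 genes, described below, they had 4.01 (adjusted p = 1.01e-05) and 4.80 (adjusted p = 3.53e-05) at 18/1 5 hr. Between 6 and 36 spots of a sample were marked non-uniform on slide 1, between 45 and 14642 on slide 2 and between 37 and 85 on slide 3, and up to 2800 were saturated on slide 2. Every comparison that crosses slides has this difference within it, and slide and condition cannot be told apart there.

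**Figure D1:**
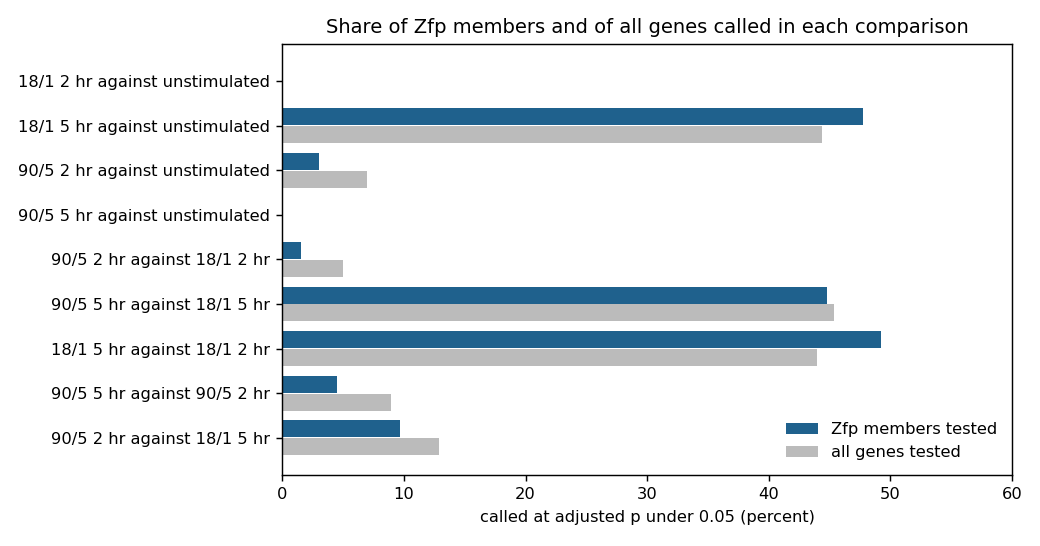
Percent of the 134 tested Zfp members (blue bars) and of all 10355 tested genes (grey bars) called at an adjusted p under 0.05 in each of 9 comparisons. The blue bars stand at 47.8% against 44.4% for 18/1 5 hr against unstimulated and at 2.99% against 6.97% for 90/5 2 hr against unstimulated.

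After 5 hr of the 18/1 pattern, 20 of 134 members were higher than in unstimulated samples and 44 were lower. The highest rises were those of Zfp937, Zfp791 and Zfp936, and the deepest falls those of Zfp609, Zfp346 and Zfp414, where Zfp609 is read on 1 probe and another probe of it gave 2.55. Over all genes tested, 44.4% were called, 15% higher and 29.5% lower, so the members' 64 calls (47.8%) are near the background share. The median log2 difference was −0.27 over members and −0.23 over all genes. The levels of 81 members (60.4%) did not overlap between the conditions, against 53.7% of all genes, and 62 of the 64 called were among them. Without unstimulated array 1 the count was 38, and without array 2 it was 36.

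Zfp937 had log2 normalised intensities of 8.89, 8.68, 8.84 and 8.60 in the unstimulated replicates and of 12.59 and 13.09 on array 5 and 11.19 and 11.62 on array 6 at 18/1 5 hr. All 4 stimulated samples were above all unstimulated ones. The log2 difference was 3.37 (SE 0.45, limma, Benjamini-Hochberg adjusted p = 1.33e-05).

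Zfp791 read 11.35, 12.31, 11.24 and 11.95 in unstimulated samples and 15.26, 15.07, 14.61 and 14.53 at 18/1 5 hr, a log2 difference of 3.15 (SE 0.40, adjusted p = 7.94e-06). The groups did not overlap, and 3 of the 4 samples at 18/1 5 hr were saturated, so the difference may be understated. Zfp791 has 1 probe on the array, with a GC content of 35%.

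Zfp936 stood at 11.47, 11.45, 11.46 and 11.38 in unstimulated samples and at 14.25, 14.62, 12.72 and 13.20 at 18/1 5 hr (log2 difference 2.26, SE 0.47, adjusted p = 0.000756). Zfp930 went from 11.32, 11.36, 11.24 and 11.32 to 13.44, 14.35, 12.85 and 13.22 (2.16, SE 0.43, adjusted p = 0.000474). In both genes the samples of array 5 read higher than those of array 6, and all 4 read above the unstimulated samples. For Zfp936 1 of the 4 samples was saturated, so its differences from 18/1 5 hr may be understated. The genes whose probes share bases with these rose too, Zfp386 by a log2 difference of 1.65 (adjusted p = 0.00171) and Zfp442 by 1.50 (adjusted p = 0.011), while Zfp947 had a difference of 0.25 (adjusted p = 0.778).

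Zfp609, which binds the cohesin loader and Integrator in neural progenitors, read 9.17, 9.13, 9.23 and 8.90 in unstimulated samples and 6.72, 6.59, 7.18 and 6.96 at 18/1 5 hr on the probe used. That probe fell by 2.25 on the log2 scale (SE 0.40, adjusted p = 0.000197), with 2 of the 4 stimulated samples well above background. Another probe of the gene gave the opposite result, described with the probes below.

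Zfp346, a protein that binds double-stranded RNA, read 9.73, 9.74, 9.31 and 9.71 in unstimulated samples. At 18/1 5 hr it read 6.91 and 6.88 on array 5 and 8.23 and 8.04 on array 6. It fell by 2.11 (SE 0.38, adjusted p = 0.000229). Both arrays were below every unstimulated sample, by amounts that differed, and 2 of the 4 stimulated samples were well above background, so the size of the fall rests partly on dim spots.

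Zfp414 read 13.04, 13.13, 13.04 and 12.88 without stimulation and 11.18, 10.84, 11.60 and 11.26 at 18/1 5 hr (log2 difference −1.81, SE 0.30, adjusted p = 0.000115). It is among the brighter members, and its groups were separate. The calls of Zfp937, Zfp791, Zfp936, Zfp346 and Zfp414 at 18/1 5 hr held without any 1 sample or array, while the methods' t-test after Benjamini-Hochberg adjustment did not call Zfp937 (adjusted p = 0.0952) or Zfp936 (adjusted p = 0.113). With the trend on probe GC removed, the difference of Zfp414 was −0.80 (adjusted p = 0.0134), and with median centring it was −2.41.

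**Figure D2:**
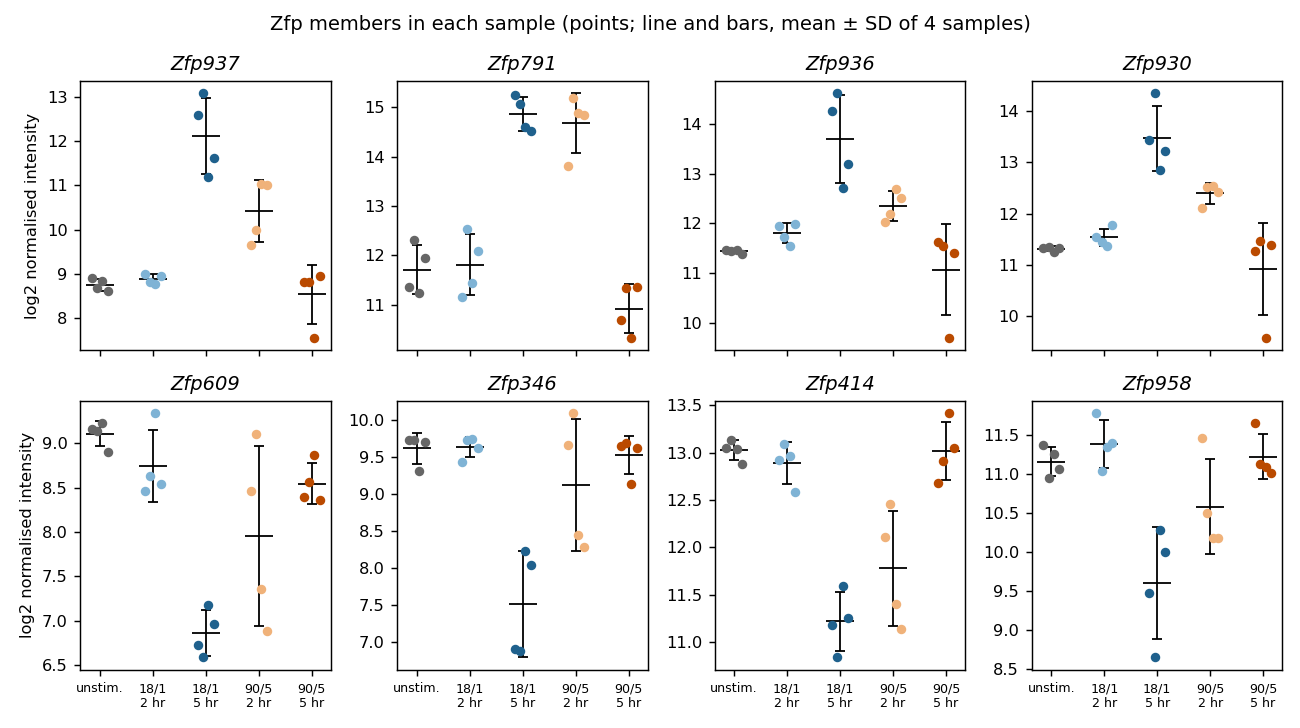
Log2 normalised intensity of 8 members in each of the 20 samples (points), with the mean and SD of the 4 samples of a condition (line and bars), for the unstimulated, 18/1 and 90/5 samples at 2 hr and 5 hr. The samples at 18/1 5 hr stand above the unstimulated ones in the upper row, from 11.19 to 13.09 against 8.60 to 8.89 for Zfp937, and below them in the lower row.

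Of members listed for roles in neural or glial cells or in neurotrophin signalling, 2 of 6 tested were called at 18/1 5 hr, both lower, beside 44.4% of all genes. Zfp503, a regulator of striatal development also called Nolz1, read 9.06, 8.90, 9.28 and 8.88 in unstimulated samples and 7.12, 7.30, 7.54 and 7.14 at 18/1 5 hr (−1.75, SE 0.34, adjusted p = 0.000383). Zfp110, a protein that binds the p75 neurotrophin receptor, read 9.75, 9.28, 9.57 and 9.63 and then 8.29, 7.43, 8.82 and 8.47 (−1.30, SE 0.38, adjusted p = 0.00897), and lost its call without array 1 (adjusted p = 0.0591) or array 2 (adjusted p = 0.0773). All 4 stimulated samples of Zfp503 read below its unstimulated ones, with 2 of the 4 well above background. The other 4, Zfp365, Zfp536, Zfp488 and Zfp191, were not called.

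Among factors known to bind promoters, 2 of 8 tested were called at 18/1 5 hr, both higher, beside 44.4% of all genes (15% higher). Zfp260, an activator of cardiac genes, read 12.18, 11.64, 12.29 and 11.90 in unstimulated samples and 13.50, 13.93, 13.27 and 13.75 at 18/1 5 hr (1.61, SE 0.33, adjusted p = 0.000672). Zfp281, a factor of pluripotent cells, had a difference of 0.91 (SE 0.28, adjusted p = 0.0121). Zfp143 had the lowest difference of the list, −0.51, and was not called. With each sample centred on its median, without loess and Aquantile, this list had 1 call higher and 1 lower.

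Of 6 tested members with roles at RNA, the ribosome or the spindle, 1 was called higher and 1 lower at 18/1 5 hr, beside the same 44.4%. Zfp598, the ubiquitin ligase that marks collided ribosomes, read 9.10, 8.66, 8.83 and 8.62 in unstimulated samples and 10.58, 10.51, 9.78 and 9.82 at 18/1 5 hr (1.37, SE 0.30, adjusted p = 0.00118). The lower one was Zfp346. Zfp593, a ribosome assembly factor, had a difference of 0.62 (adjusted p = 0.0907). Of the KRAB repressors with known targets, 2 were tested. Zfp809, which silences retroviruses through Trim28, had a difference of −0.79 (SE 0.23, adjusted p = 0.00819), lost without array 1 (adjusted p = 0.0631) or array 2 (adjusted p = 0.0797) and at −0.24 (adjusted p = 0.335) with the trend on probe GC removed, and Zfp932 one of −0.36 (adjusted p = 0.419).

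The machinery that KRAB proteins recruit was read from a separate list of 17 genes, of which 14 were tested. At 18/1 5 hr 6 of them were lower and 1 was higher, where 29.5% of all genes were lower and 15% higher, and the count of 7 of 14 is near the share of 44.4% over all genes. Hdac1, a histone deacetylase, had a log2 difference of −2.11, Trim28 itself one of −1.66 (adjusted p = 0.000424) and Mphosph8, a reader of methylated histone H3, one of 1.68. The mean of Hdac1 went from 8.79 to 6.68, a dim level, so the size of its fall may rest partly on dim spots. With median centring the split was 8 lower and 1 higher, and with the trend on probe GC removed it was 6 lower and 1 higher. The list median was −0.58.

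Other zinc finger families were counted at 18/1 5 hr as well. Of 29 tested genes with a 1- or 2-digit Zfp symbol, 5 were higher and 8 lower. Of 21 tested Zbtb genes, which pair fingers with a BTB domain, 1 was higher and 10 were lower, from −2.24 for Zbtb7a to 1.49 for Zbtb5. Of 9 tested Zkscan and Zscan genes, which carry a SCAN domain, 2 were higher and 0 lower, and with median centring 0 were higher and 3 lower. The medians of these lists were −0.42, −0.55 and 0.25, beside −0.27 for the members and −0.23 for all genes, of which 15% were higher and 29.5% lower.

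The balance of rises and falls depended on the scaling. Median centring without loess and Aquantile moved the median of all genes at 18/1 5 hr from −0.23 to −0.81 and gave 6 members higher and 68 lower, in place of 20 and 44. The median of the members under that scaling was −0.80. Removing the trend on probe GC, an alternative added after the data were seen, gave 28 higher and 33 lower and retained 39 of the 64 calls.

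The GC content of the probe moved with the difference at 18/1 5 hr. Across the 134 members Pearson's r was −0.27, and across all 10355 genes −0.43, given as descriptions over probes that share arrays and base composition. In the lowest of 3 ranges of probe GC, 16.7% to 36.7%, 11 members were called higher and 7 lower. In the middle range, 38.3% to 43.3%, 6 were higher and 12 lower. In the highest range, 45% to 91.7%, 3 were higher and 25 lower, and the median of the members there was −0.79 against −0.72 for all genes. The median probe GC of the members called higher was 35.8% and of those called lower 45%. The part of probe GC in the calls was not tested.

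**Figure D3:**
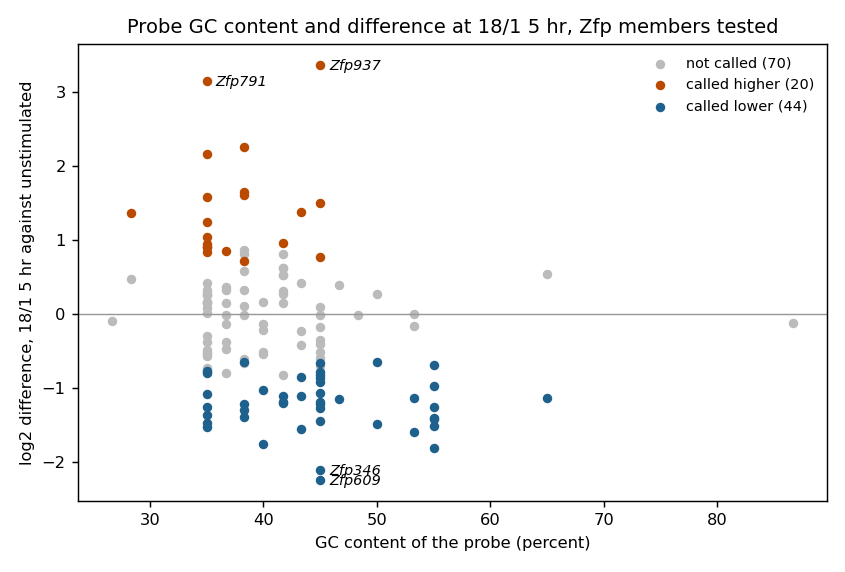
Log2 difference of 18/1 5 hr against unstimulated samples (vertical axis) by the GC content of the member's probe in percent (horizontal axis), for the 134 tested members, coloured by call. Members called lower gather at the higher GC contents, where 25 of 43 members with a probe GC of at least 45% were lower and 3 were higher.

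Probes of 1 gene did not always move together. Of the 261 members, 124 have more than 1 probe, with 416 member probes in all. Of 40 members with more than 1 probe well above background in every sample, 22 had probes of opposite sign at 18/1 5 hr. The median range between the probes of a member was 0.95 on the log2 scale, and 0 had probes called both ways in the fit of all probes. Of 16 tested members with more than 1 probe that passed the filter, 11 had probes of opposite sign, with a median range of 1.29. In a limma fit of the passing probes, Zfp457, 1 of the members called higher, was called both ways. It had 0.83 on the probe used (adjusted p = 0.0373) and −1.40 on the other (adjusted p = 0.000179). Without the filter, 5 of the 124 had probes called both ways, among them Zfp609. For that gene the probe used had a log2 difference of −2.25 (adjusted p = 0.00406 in the fit of all probes), a brighter probe with 1 sample marked non-uniform had 2.55 (adjusted p = 0.00763), and the dimmest had 0.12 (adjusted p = 0.818). The direction for Zfp609 is thus that of 1 probe and turns where non-uniform spots are kept.

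The other probes of the members that rose most gave smaller differences or differences below 0. Zfp937 had 3.37 on the probe used and 0.88 and 0.41 on the others, Zfp930 had 2.16 and −0.14, and Zfp936 had 2.26 and −0.36. The 2 probes of Zfp593 were of opposite sign, 0.62 and −1.14, and Zfp932 had −0.36, 1.19 and 0.42. In the fit of all probes, which keeps non-uniform spots, both probes of Zfp503 were below 0, at −1.21 and −1.27. The names of 89 member probes differ between the annotations in the files, and 21 of these are the probes used for tested members.

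**Figure D4:**
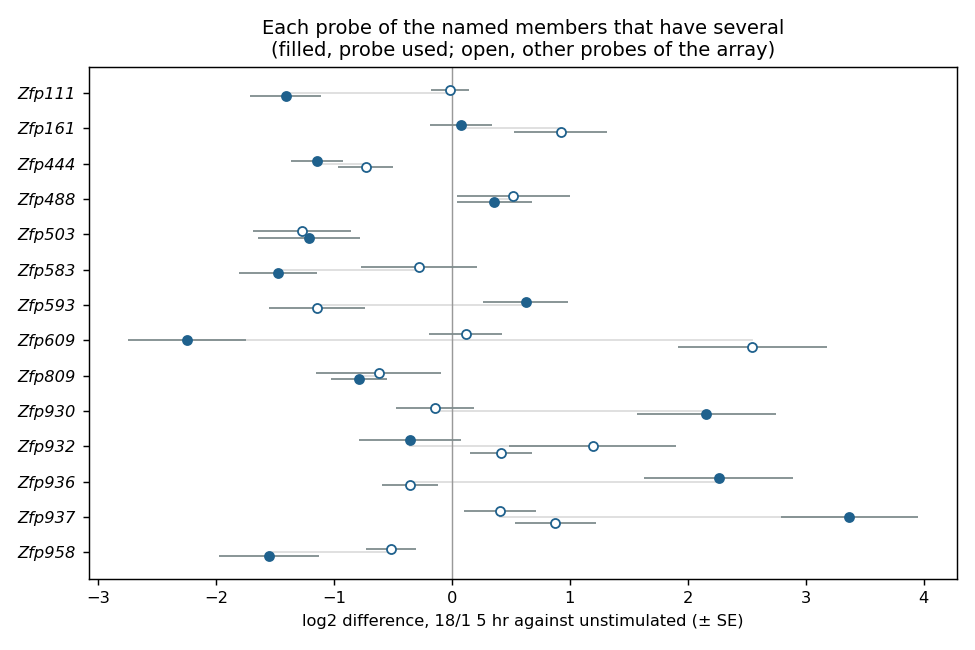
Log2 difference (± SE) of 18/1 5 hr against unstimulated samples for every probe of the 14 named members with more than 1 probe, from a fit of all 39429 probes, with the probe used filled and the others open. The probes of Zfp609 reach from −2.25 to 2.55 and those of Zfp937 from 0.41 to 3.37, while those of Zfp503 lie together.

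At 18/1 2 hr, on the same slide as the unstimulated samples, 0 of 134 members were called by limma, and 0 had an unadjusted p under 0.05. These p-values use 1 estimate of the spread over all 20 samples. The median SD of members was 0.16 in unstimulated and 0.21 in 18/1 2 hr samples, against 0.36 and 0.32 in the conditions of slide 2. Without slide 2, 0 members were called too, beside 0.0579% of all genes. Over all genes 2 were called, both higher (0.0193%). The differences of the members ran from −0.43 to 0.54 with a median of −0.04. None of the 20 members that were later higher or the 44 later lower was called at 2 hr, and their medians were 0.11 and −0.13. Both sets were chosen against the same unstimulated samples, so the signs of these medians are not independent of that choice. Zfp937 read 9.0001, 8.81, 8.76 and 8.94 at 18/1 2 hr, a difference of 0.12 from unstimulated samples (adjusted p = 1), and Zfp346 read 9.44, 9.73, 9.75 and 9.63, a difference of 0.01. Same-numbered samples of these conditions deviated together. A fit of them alone with the replicate number as a block called 1 member, beside 2% of all genes. In that fit 29 members had an unadjusted p under 0.05. The member called was Zfp932, at 11.87, 11.92, 11.27 and 12.08 against 11.09, 11.36, 11.10 and 11.43 in unstimulated samples (0.54, SE 0.12, adjusted p = 0.0445, against 1 in the main fit of all 20 samples). The fit with the replicate block differs from the main one in its samples as well as in the block. A fit of these conditions alone without the replicate block called 0 members.

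Against 18/1 2 hr, 66 members were called at 18/1 5 hr, 22 higher and 44 lower, where 44% of all genes were called, 15.3% higher and 28.7% lower. Median centring gave 6 higher and 61 lower, and removing the trend on probe GC gave 27 and 33. Without array 3 the count was 35, and without array 4 it was 30. Zfp937 differed by 3.24 (SE 0.45, adjusted p = 2.09e-05), Zfp791 by 3.06 (SE 0.40, adjusted p = 1.09e-05) and Zfp930 by 1.93 (SE 0.43, adjusted p = 0.00123). The methods' t-test after Benjamini-Hochberg adjustment did not call Zfp937 (adjusted p = 0.101) or Zfp930 (adjusted p = 0.103). Zfp346 differed by −2.12 (SE 0.38, adjusted p = 0.000234), Zfp609 by −1.88 on the probe used (adjusted p = 0.000947), and Zfp958 by −1.78 (SE 0.35, adjusted p = 0.00044), from 11.78, 11.03, 11.34 and 11.39 to 9.48, 8.65, 10.29 and 10.01. This comparison and that with unstimulated samples share the 18/1 5 hr samples. Zfp598 was higher by 1.47 (adjusted p = 0.00069) and Zfp593 by 0.98 (adjusted p = 0.0107), the latter lost without array 3 (adjusted p = 0.0748) or array 4 (adjusted p = 0.0709). Median centring took Zfp593 to 0.19 (adjusted p = 0.649) and Zfp598 to 0.74 (adjusted p = 0.0682). The mean over both probes of Zfp593 gave 0.084 (adjusted p = 0.833), since its other probe went the opposite way, from a mean of 10.04 at 18/1 2 hr to 9.23 at 18/1 5 hr. Zfp932, which represses endogenous retroviruses, had −0.90 (adjusted p = 0.0393), lost without any of arrays 3, 4 and 5 and without any of 4 single samples, with −0.35 (adjusted p = 0.351) without array 5. Its other bright probe went from a mean of 10.10 to 10.95, the mean over its probes gave −0.024 (adjusted p = 0.965), removing the trend on probe GC gave −0.36 (adjusted p = 0.353) and median centring gave −1.61 (adjusted p = 0.00223).

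At 90/5 2 hr 4 members differed from unstimulated samples, 2 higher and 2 lower, where 6.97% of all genes were called, 3.58% higher and 3.39% lower. Zfp791 read 13.81 and 15.18 on array 7 and 14.89 and 14.85 on array 8, above all unstimulated samples, with a difference of 2.97 (SE 0.40, adjusted p = 6.89e-05). Zfp937 read 9.66, 9.99, 11.04 and 11.001 (1.67, SE 0.45, adjusted p = 0.028). Zfp414 read 12.11, 12.46, 11.40 and 11.14 (−1.25, SE 0.30, adjusted p = 0.0157) and Zfp583 read 8.48, 8.35, 8.02 and 7.64 against 9.20, 9.02, 9.22 and 8.94 (−0.97, SE 0.29, adjusted p = 0.0483). The call of Zfp791 held without any 1 array, and those of the other 3 were lost without array 8, where Zfp937 had 1.07 (adjusted p = 0.401), Zfp414 −0.74 (adjusted p = 0.277) and Zfp583 −0.68 (adjusted p = 0.427). They were also lost without either unstimulated array, that of Zfp937 without any of 3 single samples and that of Zfp583 without any of 7. Zfp414 had −0.80 (adjusted p = 0.0502) with the trend on probe GC removed and −1.04 (adjusted p = 0.0866) with median centring, which also ended the call of Zfp583 (adjusted p = 0.0717). The direction of Zfp583 turned, to 0.43, where spots marked non-uniform were kept and the other probe of the gene was used.

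The arrays of 90/5 2 hr differed from each other. Over the 134 members the median absolute log2 difference was 0.37 between arrays 7 and 8, 0.22 between array 7 and unstimulated array 1, and 0.55 between array 8 and array 1. Over all genes tested these medians were 0.44, 0.26 and 0.56, so the split is not particular to the members. Array 8 was closer to 18/1 5 hr array 6 (0.33, and 0.30 over all genes) than to array 7. Spots marked non-uniform moved with this, at 45 and 139 in the samples of array 7, 3138 and 6476 on array 8 and 5319 and 10718 on array 6, and their part in the split was not tested. The members higher at 18/1 5 hr had a median of 0.38 on array 7 and 0.67 on array 8 relative to unstimulated samples, and the members lower there had −0.15 and −0.87. Both sets were chosen against the same unstimulated samples. Zfp346 shows the split, with 9.67 and 10.10 on array 7 and 8.46 and 8.29 on array 8. Without array 7, 31 members were called at 90/5 2 hr in place of 4, without array 8, 2 were, and without unstimulated array 1 or 2, 1 was. Leaving out only the Cy5 colour of array 7 gave 10, and leaving out unstimulated replicate 2 or 4 gave 2.

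**Figure D5:**
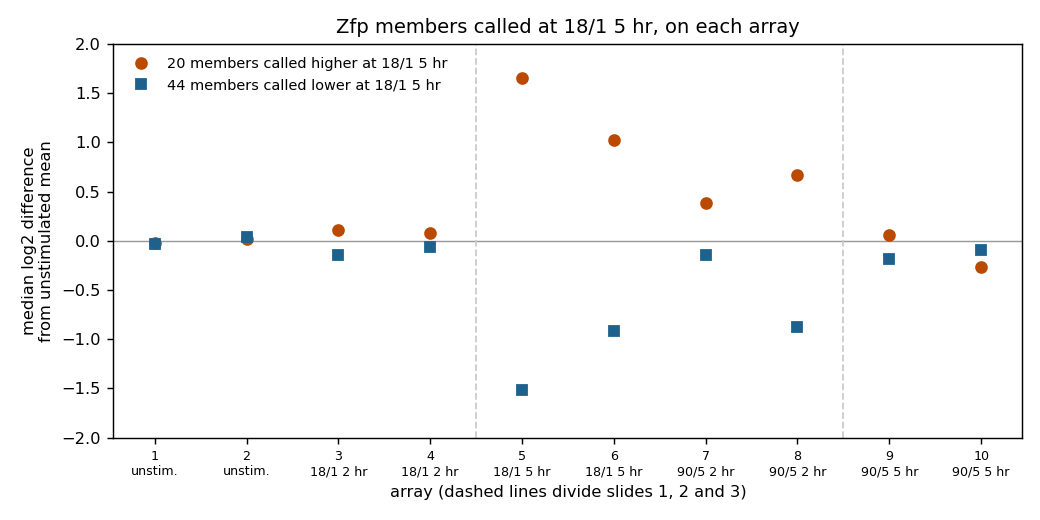
Median log2 difference from the unstimulated mean, on each of the 10 arrays, of the 20 members called higher (circles) and the 44 called lower (squares) at 18/1 5 hr, with dashed lines between slides. The sets, chosen on arrays 1, 2, 5 and 6, lie at 1.65 and −1.52 on array 5 and 1.03 and −0.92 on array 6, and array 8 (0.67 and −0.87) is farther from 0 than array 7 (0.38 and −0.15).

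At 90/5 5 hr 0 of 134 members differed from unstimulated samples by limma's adjusted p (lowest 0.735), with 4 at an unadjusted p under 0.05, and 7 of all genes were called (0.0676%, of which 0.0483% higher and 0.0193% lower). The members' differences ran from −0.79 for Zfp791 to 0.39 for Zfp932. Zfp937 read 8.82, 8.81, 7.54 and 8.95, a difference of −0.22 (adjusted p = 1), and Zfp791 read 10.68, 11.33, 10.33 and 11.36. Zfp346 read 9.66, 9.69, 9.14 and 9.63, and Zfp414 read 12.68, 12.92, 13.42 and 13.05. Each of these ranges met that of the unstimulated samples. Replicate 3 stood apart from the other 3, with 335 member spots well above background against 379 to 385 in the others and a correlation with them over spots of 0.957 to 0.968 against 0.986 to 0.993 among them, and without it 0 members were called. Without it the patterns differed at 5 hr in 69 members in place of 60, and 8 in place of 6 differed between 5 hr and 2 hr of 90/5. The fit without slide 2 called 5 members, all lower (3.73%), beside 2.48% of all genes.

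After 5 hr the patterns differed in 60 of 134 members, 35 higher and 25 lower in 90/5 than in 18/1, where 45.4% of all genes were called, 29.6% higher and 15.8% lower. Zfp791 was lower in 90/5, with a log2 difference of −3.94 (SE 0.40, adjusted p = 4.69e-07), as were Zfp937 with −3.59 (SE 0.45, adjusted p = 5.57e-06) and Zfp936 with −2.63 (SE 0.47, adjusted p = 0.000176). Zfp346 was higher in 90/5 by 2.01 (SE 0.38, adjusted p = 0.000302), Zfp414 by 1.80 (SE 0.30, adjusted p = 1e-04, and 0.68 with the trend on probe GC removed) and Zfp609 by 1.68 on the probe used (SE 0.40, adjusted p = 0.00202). The samples at 18/1 5 hr enter this comparison and that with unstimulated samples.

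Among members with known roles, 3 of 8 tested promoter-binding factors were lower in 90/5 at 5 hr, beside 15.8% of all genes lower and 45.4% called, namely Zfp260 (−1.56, adjusted p = 0.00081), Zfp281 and Zfp161. Zfp281 read 10.77, 10.65, 11.30 and 11.04 at 18/1 5 hr and 9.98, 10.03, 9.46 and 9.82 at 90/5 5 hr (−1.12, SE 0.28, adjusted p = 0.00282), lost without array 10 (adjusted p = 0.0528) and at −0.19 (adjusted p = 0.675) with median centring. Of the list of neural, glial and neurotrophin roles, 2 of 6 were called, 1 each way. Zfp503 was higher in 90/5 (1.20, SE 0.34, adjusted p = 0.00657), lost without array 10 (adjusted p = 0.0818) and at 0.71 (adjusted p = 0.11) where non-uniform spots were kept. Zfp488, a factor of oligodendrocyte differentiation, read 11.01, 11.12, 10.52 and 10.25 and then 9.93, 9.99, 9.72 and 10.09 (−0.79, SE 0.27, adjusted p = 0.0212), lost without any of arrays 5, 9 and 10, at 0.13 with median centring and at −0.53 (adjusted p = 0.117) with the trend on probe GC removed. Zfp161, also named Zbtb14, had −0.63 (SE 0.24, adjusted p = 0.0335), lost without any of arrays 6, 9 and 10 or without 1 of 3 single samples, with adjusted p up to 0.182, and at −0.11 (adjusted p = 0.764) with median centring and −0.24 (adjusted p = 0.453) with the trend on probe GC removed. Of the RNA, ribosome and spindle list, 3 of 6 were called, Zfp346 higher and Zfp598 (−1.26, SE 0.30, adjusted p = 0.00204) and Zfp593 (−0.89, SE 0.30, adjusted p = 0.0181) lower. With median centring Zfp598 had −0.41 (adjusted p = 0.314) and Zfp593 0.027 (adjusted p = 0.949). The call of Zfp598 was also lost with the trend on probe GC removed (−0.52, adjusted p = 0.183), and that of Zfp593 on the mean over its probes (−0.12, adjusted p = 0.757) and without array 9 or array 10. Without array 10 the patterns differed in 38 members in place of 60. Median centring gave 66 higher and 6 lower in 90/5, in place of 35 and 25, with a shift of the median of all genes from 0.23 to 0.93, and removing the trend on probe GC gave 27 and 28.

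After 2 hr the patterns differed in 2 of 134 members, 1 each way, where 4.96% of all genes were called, 2.66% higher and 2.31% lower in 90/5. Zfp791 was higher in 90/5, at 13.81 to 15.18 against 11.16 to 12.54 in 18/1 (2.87, SE 0.40, adjusted p = 0.000119). Zfp414 was lower (−1.12, SE 0.30, adjusted p = 0.0348), a call that was lost without any of arrays 3, 4 and 8 (adjusted p = 0.378, 0.192 and 0.595) and without any of 5 single samples, and at −0.73 (adjusted p = 0.0918) with the trend on probe GC removed and −0.92 (adjusted p = 0.154) with median centring. Without array 7 there were 30 calls in place of 2, and without array 3, 4 or 8 there was 1. Leaving out single samples gave 1 to 4. Where probes with a saturated spot were left out, among them that of Zfp791, 0 members were called.

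The difference between the patterns at 5 hr was tested against that at 2 hr. It changed in 60 members, 37 upward and 23 downward, where 44.8% of all genes were called, 28.2% upward and 16.6% downward. Median centring gave 52 upward and 11 downward, and removing the trend on probe GC gave 29 and 26. The size, which for Zfp791 rests on saturated samples in 18/1 5 hr and 90/5 2 hr, was −6.81 for Zfp791 (SE 0.56, adjusted p = 1.7e-08), −5.13 for Zfp937 (SE 0.64, adjusted p = 3.47e-06) and 2.91 for Zfp414 (SE 0.43, adjusted p = 2.24e-05). For Zfp791 the 90/5 level was above the 18/1 level at 2 hr and below it at 5 hr.

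Within the 90/5 pattern, 6 members differed between 5 hr and 2 hr, 2 higher and 4 lower, where 8.96% of all genes were called, 4.69% higher and 4.27% lower. Zfp791 was lower at 5 hr, with a log2 difference of −3.76 (SE 0.40, adjusted p = 2.46e-06) and its samples did not overlap, at 10.33 to 11.36 against 13.81 to 15.18. Zfp937 was lower too (−1.89, SE 0.45, adjusted p = 0.0105), and so was Zfp930 (−1.47, SE 0.43, adjusted p = 0.0325). Zfp414 was higher by 1.24 (SE 0.30, adjusted p = 0.0126), and Zfp444 by 0.78 (SE 0.23, adjusted p = 0.0349), from 7.67, 7.69, 7.05 and 6.78 to 8.09, 8.13, 8.02 and 8.08. Without array 8 or array 10 the calls of Zfp937, Zfp930, Zfp414 and Zfp444 were lost, with adjusted p from 0.0975 to 0.442, and that of Zfp444 was lost without array 9 too (adjusted p = 0.172). Leaving out 1 of 4 single samples ended the call of Zfp444, and 1 of 2 that of Zfp930. With the trend on probe GC removed, Zfp414 had 0.69 (adjusted p = 0.102), Zfp930 −1.23 (adjusted p = 0.0869) and Zfp444 −0.0054. With median centring Zfp930 and Zfp444 had adjusted p of 0.0778 and 0.07. Leaving out array 7 gave 32 calls, array 8 gave 3, array 9 gave 4 and array 10 gave 2.

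The 90/5 2 hr and 18/1 5 hr samples share slide 2, so their comparison holds no slide difference, but pattern and time both differ. Spot quality differed too, with 5319 to 14642 spots of a sample marked non-uniform on arrays 5 and 6 (18/1 5 hr), 45 and 139 on array 7 and 3138 and 6476 on array 8 (90/5 2 hr). Its part in the differences was not tested. It called 13 members, 7 higher and 6 lower at 90/5 2 hr, where 12.9% of all genes were called, 10.2% higher and 2.76% lower. Zfp346 read 9.67, 10.10, 8.46 and 8.29 at 90/5 2 hr against 6.91, 6.88, 8.23 and 8.04 and was higher by 1.61 (SE 0.38, adjusted p = 0.0124). Zfp532 was higher by 1.18 (SE 0.39, adjusted p = 0.0469), at 8.05, 8.98, 7.57 and 7.20 against 6.75, 6.61, 6.94 and 6.77. Zfp111 was higher by 1.102 (SE 0.29, adjusted p = 0.0208), at 8.44, 8.46, 7.13 and 6.96 against 6.62, 6.71, 6.67 and 6.59. For Zfp532 and Zfp111 1 of 4 samples at 18/1 5 hr was well above background, and the samples of array 7 stand apart from those of array 8.

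Zfp937 was lower at 90/5 2 hr than at 18/1 5 hr (−1.70, SE 0.45, adjusted p = 0.0208). Zfp943 was lower (−1.29, SE 0.38, adjusted p = 0.0323), at 9.23, 8.51, 9.70 and 9.25 against 10.95, 10.23, 10.35 and 10.31. Zfp260 was lower (−1.24, SE 0.33, adjusted p = 0.0212), at 12.17, 12.005, 12.57 and 12.76 against 13.50, 13.93, 13.27 and 13.75. No sample of these 3 genes overlapped between the conditions. Every one of the 6 calls named for this comparison was lost without array 5, where adjusted p ran from 0.0615 to 0.181, and without array 7, where it ran from 0.222 to 0.394. Median centring took Zfp937 to −1.07 (adjusted p = 0.0807), Zfp943 to −0.60 (adjusted p = 0.258) and Zfp260 to −0.73 (adjusted p = 0.183), and with the trend on probe GC removed Zfp111 had 0.54 (adjusted p = 0.159). Leaving out 1 of 4 single samples ended the call of Zfp532, and 1 of 2 that of Zfp943. Among single samples, leaving out Cy3 of array 5 gave 7 calls, Cy5 of array 7 gave 8 and Cy3 of array 8 gave 22. Among whole arrays, leaving out array 7 gave 0 calls, array 5 gave 3, array 6 gave 56 and array 8 gave 48, and median centring gave 47 higher and 0 lower.

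Across the 9 comparisons 56 of the 134 members were called in none (41.8%, against 44.8% of all genes), and 74 were called in at least 1 of the 5 comparisons between stimulated conditions (55.2%, against 52.2%). The spread of the members within a condition also differed. The median SD of 4 samples was 0.16 in unstimulated cells and 0.21 after 18/1 for 2 hr. It was 0.36 after 18/1 for 5 hr. In the 90/5 samples it was 0.32 at 2 hr and 0.31 at 5 hr. Over all genes the medians were near these, at 0.16, 0.24, 0.36, 0.35 and 0.28 in the same order. Zfp947 had the largest SD of a tested member, 1.48 at 90/5 5 hr, where replicate 3 read 10.98 and the others 13.81, 14.07 and 13.90.

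Members were counted by position as well. They lie on 19 chromosomes, with 65 on chromosome 7 in the GRCm38 order of RefSeq genes, and 94 of them lie in 34 runs of neighbouring members, the largest of 7 genes. Of the runs, 8 had more than 1 member called at 18/1 5 hr, and 3 of these 8 had members called both ways. In the rest every call was lower, where 29.5% of all genes were lower and 15% higher. On chromosome 7, 3 of 4 tested genes were called in the run of Zfp180, Zfp112, Zfp235, Zfp114 and Zfp111, and 3 of 3 in the run of Zfp566, Zfp260, Zfp382 and Zfp146, where Zfp260 was higher and Zfp566 and Zfp146 were lower. Neighbours may share probe sequence, and no test of position was made.

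The 127 members outside the filter were read in a fit of 19117 genes that carried the marks of the members. Their differences at 18/1 5 hr had a median of −0.19 and ran from −2.71 for Zfp648 to 3.50 for Zfp345, whose probe holds the linker codons and shares at least 20 bases with probes of 5 other genes. In that wider fit 106 of 261 members were called at 18/1 5 hr (40.6%), 40 higher and 66 lower, where 36.9% of the 19117 genes were called.

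Markers of other cells in these cultures were read beside the members. Schwann cell and satellite glia genes were well above background in all samples for 6 or 7 of 8, fibroblast genes for 5 or 6 of 6, macrophage genes for 4 of 4, and endothelial genes for 1 to 3 of 3. At 18/1 5 hr the 4 tested fibroblast genes had a median log2 difference of 1.02, with Col1a1 called at 1.79. The endothelial Pecam1 was called at −1.35. Pecam1 was not well above background in all 4 samples there, so the size of its fall rests partly on dim spots. At 90/5 5 hr the fibroblast median was −0.09. Between the patterns at 5 hr it was −1.19, with 3 of the 4 genes called lower in 90/5. Of all 10355 genes tested, 1636 were called lower there, and 45.4% were called in either direction. Pecam1 was called higher in 90/5 there, at 1.35. Their part in the values of the Zfp genes was not tested.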

How the data were processed

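RNA was measured with Agilent 2-colour arrays of 44397 spots, and 20 samples of 5 conditions, 4 each, were read as single colours of 10 arrays on 3 slides. The deposited values are scanner intensity values, which the authors extracted with Feature Extraction 10.7.1.1 (slide 1) and 10.7.3.1 (slides 2 and 3), per the file headers. Of the columns of each colour, 36 were not used. The mean signal and median background intensity were corrected with normexp (offset 50), loess within and Aquantile between arrays in limma 3.58.1 (R 4.3.3). Spots at least 2 times background and not non-uniform in all samples were kept, the brightest probe stood for a gene, and the array entered limma as a random block (correlation 0.529). A call is a Benjamini-Hochberg adjusted p under 0.05 over 10355 genes. The fit was tested on simulated data. The study calls the RNAs on an array biological replicates, speaks of 4 replicate experiments for a condition and states that cultures were pooled for each condition. How the pools map to the 4 samples is not given in the sources used here. All 20 samples entered 1 fit, and p-values rest on 1 estimate of the spread per gene over all conditions. The SE of a gene is thus the same in each of the 9 comparisons, although the spread differs between conditions. The number of samples limits the precision.

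The members and lists were chosen with earlier results of these data known. Named were, per comparison, up to 3 called members with the largest difference in each direction among those whose samples did not overlap, and up to 3 of each list of known roles. Zfp386, Zfp442, Zfp947 and Zfp457 (for their probes), Zfp143, run members, Zfp648 and Zfp345 were named after their values were seen. Same-numbered unstimulated and 18/1 2 hr samples correlated in their deviations from the group means in every pair (r 0.13 to 0.56), which pairs them from the data, not the labels; with 90/5 5 hr samples the numbers did not pair (r −0.34 to 0.55). Alternatives covered background, scaling, filters, probes, the block, samples and arrays left out, the methods' t-test (fold 1.4) and the trend on probe GC.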

Additional observations from a re-analysis of the deposited data

Results flagged for a closer look

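Of 115 groups of 4 samples of the 23 named members, 9 held a sample far from the other 3. Chance gives about 1 in 20. Of the 9, 5 were replicate 3 at 90/5 5 hr, which read 7.54 for Zfp937 (others 8.81 to 8.95), 9.69 for Zfp936 (11.4 to 11.6), 9.57 for Zfp930 (11.3 to 11.5), 11.5 for Zfp260 (12.2 to 12.3) and 9.14 for Zfp346 (9.63 to 9.69). The same sample read low for Zfp386 (9.28), Zfp442 (10.26) and Zfp947 (10.98), whose probes share bases with those of Zfp936, Zfp930 or Zfp937. It stood apart as a whole, with a median signal over background of the member spots of 5.31 against 10.99 to 13.27 in the other samples of the condition. The others were 9.31 for Zfp346 in unstimulated replicate 3, 8.63 for Zfp532 and 10.4 for Zfp281 in 18/1 2 hr replicate 3, and 9.57 for Zfp110 in the Cy3 sample of array 7 at 90/5 2 hr.

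The difference between the patterns changed from 2 hr to 5 hr in 17 of the 23 named members (limma, Benjamini-Hochberg adjusted p), a count favoured by their choice from comparisons of the same samples. It changed downward for Zfp791 (−6.81, adjusted p = 1.7e-08), Zfp937 (−5.13, 3.47e-06), Zfp930 (−3.41, 0.000145), Zfp936 (−3.18, 0.000709), Zfp598 (−2.17, 0.000412), Zfp260 (−1.70, 0.00583), Zfp281 (−1.53, 0.00364) and Zfp593 (−1.47, 0.00716). It changed upward for Zfp414 (2.91, adjusted p = 2.24e-05), Zfp346 (2.52, 0.000865), Zfp609 (2.48, 0.0015), Zfp958 (2.42, 0.000515), Zfp503 (1.87, 0.00341), Zfp444 (1.79, 0.000179), Zfp532 (1.54, 0.0256), Zfp111 (1.43, 0.00788) and Zfp583 (1.42, 0.00844). The direction is that of 1 probe for Zfp609, whose brighter probe gave −4.21, for Zfp583, whose other probe gave −0.29, for Zfp593, whose other probe gave 0.83, and for Zfp930 and Zfp111, whose other probes gave 0.19 and −0.011. With the trend on probe GC removed, Zfp111 had −0.067 (adjusted p = 0.898), Zfp444 −0.13 (0.771) and Zfp598 −0.93 (0.0921), and with median centring Zfp281 had −0.62 (0.342) and Zfp593 −0.55 (0.341). Zfp503 had 1.09 (0.0844) where non-uniform spots were kept. The call of Zfp532 was lost without any of arrays 3, 4, 8, 9 and 10. Each of the 4 conditions enters this test, and slide and condition cannot be told apart in it. Over the 134 tested members 60 were called, beside 44.8% of all genes.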

How the results depend on the processing

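For the named members, 947 values under the alternatives kept direction and call, 201 lost the call and 14 turned. Counts of members called are given beside the main one. With the filter on the marks that chose the members, 18/1 5 hr against unstimulated gave 106 (main 64), 90/5 2 hr against unstimulated 8 (4), 90/5 2 hr against 18/1 2 hr 6 (2), 90/5 5 hr against 18/1 5 hr 94 (60), 90/5 5 hr against 2 hr 16 (6), 90/5 2 hr against 18/1 5 hr 22 (13) and the change of pattern difference 94 (60), where 261 members were tested in place of 134. In that order the shares were 40.6%, 3.07%, 2.3%, 36%, 6.13%, 8.43% and 36% of members, beside 36.9%, 4.67%, 3.44%, 37.8%, 7.28%, 8.77% and 38% of all 19117 genes. For the other alternatives the cause was not tested. For 90/5 2 hr against unstimulated the count was 7 with non-uniform spots kept, 2 with median centring, 2 without saturated probes, 27 with no array block, 1 on means of arrays, 25 by the methods' t-test with its fold and 0 of these after Benjamini-Hochberg. For 90/5 2 hr against 18/1 2 hr these 7 counts were 6, 1, 0, 15, 1, 26 and 0. For 90/5 5 hr against unstimulated (main 0) the count was 1 with no array block, 5 without slide 2 and 10 by the methods' t-test. A replicate block over the unstimulated, 18/1 2 hr and 90/5 5 hr samples gave 6 there, all lower (4.48% of members, beside 3.47% of all genes), and 0 at 18/1 2 hr, and a replicate block over the unstimulated and 18/1 2 hr samples alone, added after seeing the data, gave 1 at 18/1 2 hr (main 0). For 90/5 5 hr against 2 hr it was 10 with non-uniform spots kept, 3 without saturated probes, 22 with no array block, 1 on means of arrays, 2 with only the conditions compared, 15 and 0 by the t-test before and after adjustment, and 3 with the GC trend removed. For 90/5 2 hr against 18/1 5 hr it was 47 with median centring, 49 with no array block, 0 on means of arrays or with only the conditions compared, and 21 and 0 by the t-test. The adjusted t-test gave 31 at 90/5 5 hr against 18/1 5 hr, without Zfp937 (adjusted p = 0.105) and Zfp936 (0.118), and did not call Zfp791 in its comparisons with 90/5 2 hr (0.116 to 0.17).

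Leaving out a sample or array gave 36 to 83 calls at 18/1 5 hr against unstimulated, 1 to 31 at 90/5 2 hr against unstimulated, 1 to 30 at 90/5 2 hr against 18/1 2 hr, 38 to 77 at 90/5 5 hr against 18/1 5 hr, 30 to 82 at 18/1 5 hr against 2 hr, 2 to 32 at 90/5 5 hr against 2 hr, 0 to 56 at 90/5 2 hr against 18/1 5 hr and 41 to 77 for the change of pattern difference. With non-uniform spots kept, with the marks filter and with no filter, Zfp609 turned to 2.55 (18/1 5 hr against unstimulated), 2.76 (against 18/1 2 hr) and −2.74 (90/5 5 hr against 18/1 5 hr), and Zfp583 to 0.43. Zfp488 turned to 0.13 with median centring and Zfp444 to −0.0054 with the GC trend removed. Of the 134 tested members 9 had a saturated sample. Zfp408, Zfp628 and Zfp658 were saturated in all 8 samples of slide 2, Zfp791 in 4 and Zfp936 in 1, so the sizes given for the latter pair may be understated, and 15 of the 44 members lower at 18/1 5 hr were not well above background in all 4 samples there.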
